A study of Mus musculus with 6 samples.

Results

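The genes described here are 42 genes of DNA replication and cell division, chosen by name from the 43472 gene symbols that the count files list. All 42 were found, and all 42 were among the 16152 genes with enough counts to be tested. RNA-seq of whole intervertebral discs (IVDs) compared 3 libraries labelled mutant with 3 labelled control, to ask how loss of Adgrg6, an adhesion G protein-coupled receptor, altered gene expression before disease was visible in the disc. Each library was a pool of IVDs (T8-L5) from 2 to 3 mice at postnatal day 20 on the C57B6/J strain, so no single mouse was measured. The mutant mice were Col2Cre;Adgrg6 f/f, in which Cre recombinase made under the type II collagen promoter removed a floxed part of Adgrg6 in cells that had made type II collagen at any earlier time. The controls were called wild type in the genotype label, Col2Cre controls in the titles and Cre (-) littermates in the methods, so whether they carried Cre or floxed alleles was not settled by these sources. The sex of the mice was not given.

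Cells that divide pass through a fixed order of steps. Cyclins and their kinases commit a cell to copy its DNA in S phase, and the MCM helicase opens the DNA at each fork while the PCNA clamp holds the polymerases on it. In mitosis kinetochores attach the copied chromosomes to the spindle, and the checkpoint holds back the anaphase-promoting complex (APC/C) until they are attached. The APC/C then lets the spindle part the chromosomes and the division end. The transcripts of most of these genes are made only in cycling cells and are widely used to mark them. In the young spine, dividing cells are known from the growth plate beside the disc and from the marrow, while mature disc cells divide little.

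Transcription of the S phase genes is known to depend on E2F factors, and that of the G2 and mitosis genes on complexes that bind a cell cycle homology region (CHR) and CCAAT boxes. The promoter table of RefSeq on GRCm38.p6 held 37 promoters of 35 of the 42 genes, each from 250 bases before to 50 after the start. These were searched on both strands for TTTGAA (the CHR), for CCAAT, and for 4 forms of the E2F site, which were TTTCCCGC, TTTCGCGC, TTTGCCGC and TTTGGCGC. Matches that overlap, as E2F sites on both strands of the Mcm6 promoter do, were each counted as a match. Of the 19 promoters of mitosis genes, 14 (73.7%) held TTTGAA, against 1 of 10 (10%) for the replication genes and 17.9% of all 32851 promoters in the table. An E2F site stood in 4 of the 10 (40%) replication promoters and in 0 of the 19 mitosis promoters, with 2.26% among all promoters. CCAAT was found in 29 of the 37 (78.4%) and in 37.4% of all promoters. These shares describe letters in the windows and show no binding.

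The stretches below, from RefSeq, are the 150 bases before the first annotated exon, 5′ to 3′, of 2 replication genes with an E2F site, of the mitotic kinase gene Cdk1, which held all 3 kinds of motif, and of 2 mitosis genes. Capitals mark every match, on either strand, to the motifs spelled out above, so that a match on the other strand appears as its reverse complement. They are examples, and stretches picked for a motif do not show how the classes of genes described below differ in sequence. The coordinates are chr8:75109359-75109508 (plus strand) for Mcm5, chr1:128359706-128359855 (minus strand) for Mcm6, chr10:69352939-69353088 (minus strand) for Cdk1, chr19:37376232-37376381 (plus strand) for Kif11 and chr4:118437353-118437502 (minus strand) for Cdc20.
Mcm5: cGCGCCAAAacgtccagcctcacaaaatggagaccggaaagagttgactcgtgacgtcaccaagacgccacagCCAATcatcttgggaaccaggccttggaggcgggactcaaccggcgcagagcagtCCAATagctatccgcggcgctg
Mcm6: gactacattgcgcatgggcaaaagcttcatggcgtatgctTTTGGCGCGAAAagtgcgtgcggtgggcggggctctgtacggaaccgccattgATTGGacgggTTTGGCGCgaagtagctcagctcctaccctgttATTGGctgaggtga
Cdk1: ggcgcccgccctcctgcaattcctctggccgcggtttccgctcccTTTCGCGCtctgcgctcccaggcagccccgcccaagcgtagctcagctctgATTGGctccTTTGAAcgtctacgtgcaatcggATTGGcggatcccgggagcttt
Kif11: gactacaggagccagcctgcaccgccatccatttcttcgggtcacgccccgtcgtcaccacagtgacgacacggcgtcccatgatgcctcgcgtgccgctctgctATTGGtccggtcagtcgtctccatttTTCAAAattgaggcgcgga
Cdc20: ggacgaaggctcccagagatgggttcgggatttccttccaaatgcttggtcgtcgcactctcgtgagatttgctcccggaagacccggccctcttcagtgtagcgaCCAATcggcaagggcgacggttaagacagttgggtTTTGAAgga

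The libraries held 9061491 to 12017008 counts on genes, of which the 42 genes took between 0.0538% and 0.113%, so that 1 count was worth 0.0782 to 0.114 CPM (counts scaled to a common library total). Adgrg6, listed as Gpr126, stood at 124, 108 and 94.3 CPM in control replicates 1, 2 and 3 and at 138, 124 and 106 CPM in mutant replicates 1, 2 and 3, a log2 fold change of 0.17 (SE 0.18, edgeR adjusted p = 0.849). The counts span the whole gene, which exons the floxed allele loses was not given in the sources used here, and the level of the gene therefore does not check the labels. Control replicate 1 stood apart: the summed level of 8 skeletal muscle markers was 4001 CPM there and 75.7 to 166 CPM in the other 5 libraries, and in edgeR all 8 were lower in the mutants at an unadjusted p under 0.05, where 4.32% of all genes were. The sums of the other 2 controls, 109 and 75.7 CPM, lay below those of all mutants, so the direction of the sum rests on this library, whereas Ryr1 was lower in every mutant than in every control. All 10 markers of growth plate and disc chondrocytes had counts in every library, and their sum, 78362 to 133703 CPM in the controls and 112518 to 139197 CPM in the mutants, was mostly the matrix gene Col2a1. Of the 10, 8 had log2 fold changes below 0 (median -0.30), 3 were lower without overlap (Matn3, Hapln1 and Snorc), beside 5.96% of all genes, and 2 passed an unadjusted edgeR p under 0.05, Matn3 and Snorc. The sums were 2423 to 4977 and 3163 to 5842 CPM for 9 nucleus pulposus markers, of which 8 had a count in every library and 0 passed, and 2889 to 4219 and 3775 to 5331 CPM, mostly Fmod, for 6 markers of tendon and outer annulus. Of those 6, 5 were above 0 (median 0.48) and 2 passed and were higher without overlap, Tnmd and Thbs4, where 2.89% of all genes passed higher and 5.45% were higher without overlap. Nothing in the sources names separate batches. P-values here measure the spread between these pools.

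Across the 42 genes, mutant and control IVDs did not differ beyond the spread between pools. In the edgeR quasi-likelihood test, 2 of the 42 genes passed an unadjusted p under 0.05, Ube2c and Kif11, both lower in the mutants, where 7.21% of all genes tested passed (4.32% lower and 2.89% higher). None passed after Benjamini-Hochberg adjustment over all genes in edgeR, the smallest adjusted p being 0.691, and 0.00619% of all genes did. DESeq2 called 0 of the 41 it gave a p (Ube2c had none) and limma-voom 0 of the 42 at an unadjusted p under 0.05, and both called 0 after adjustment, where they called 6.07% and 9.14% of all genes at the unadjusted threshold. The log2 fold change of mutant over control was above 0 for 20 genes and below 0 for 22, with a median of -0.01 over the 42 genes and -0.01 over all genes tested. For 1 gene, Ccne2, every mutant library lay above every control library, whereas groups without overlap occurred for 11.4% of all genes (5.45% higher and 5.96% lower). A missed threshold does not show equal levels, and the 95% intervals give what these pools allow: those of 28 of the 42 genes exclude a 2-fold change either way and those of 41 exclude a 4-fold change.

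**Figure D1:**
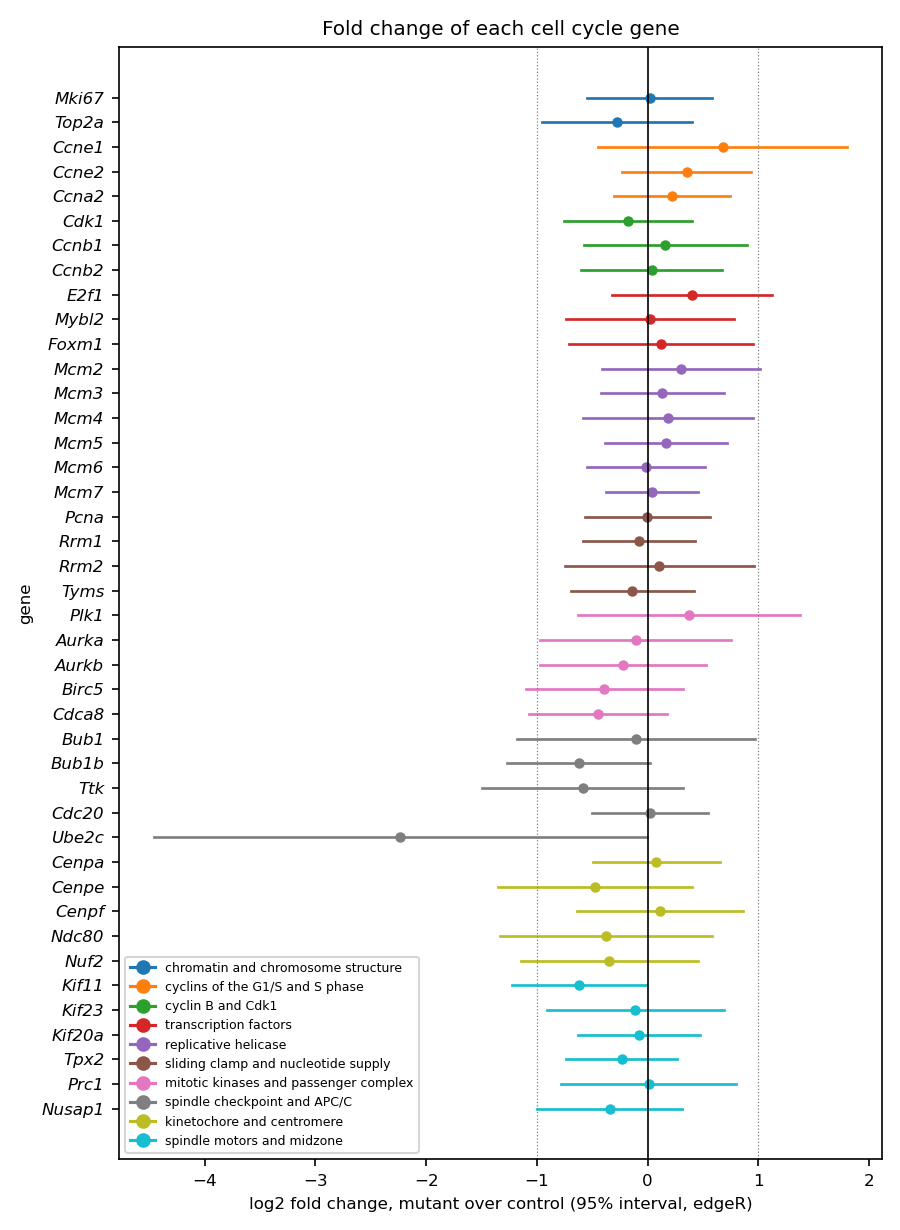
Log2 fold change of mutant over control for each of the 42 genes (points) with its 95% interval from edgeR (lines), coloured by role, and dotted lines at a 2-fold change either way. Most points lie near 0 with intervals that cross it. Ube2c, at -2.23, is the exception in size.

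Mki67 and Top2a are the usual readouts of cycling cells. Mki67, which coats mitotic chromosomes, was measured at 45.1, 27.3 and 26.5 CPM in control replicates 1, 2 and 3 and at 33.3, 41.5 and 25.2 CPM in mutant replicates 1, 2 and 3. The 2 groups overlapped, the highest library being a control and the lowest a mutant, and the means of 33.0 ± 10.5 and 33.4 ± 8.18 CPM (SD, n = 3 pools each) gave a log2 fold change of 0.02 (95% interval -0.54 to 0.59, edgeR adjusted p = 0.991). Top2a, the topoisomerase that untangles copied DNA, read 50.0, 23.4 and 26.8 CPM in the controls and 33.6, 30.0 and 18.9 CPM in the mutants. Here too control replicate 1 was highest and mutant replicate 3 lowest, and the log2 fold change of -0.28 (-0.96 to 0.40) was within the spread.

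The 3 cyclins that act at the start and during S phase had higher means in the mutants, and none passed the test. Ccne1 (cyclin E1) was scarce, at 3.10, 1.44 and 2.03 CPM in the controls against 4.78, 3.02 and 2.76 CPM in the mutants, from 13 to 42 counts per library. Its log2 fold change of 0.68 was the largest positive value of the 42 genes, and its interval of -0.45 to 1.80 (edgeR adjusted p = 0.793) shows how little this depth fixes it. Ccne2 (cyclin E2, chr4:11191351-11204779 on the plus strand, GRCm38) read 8.56, 6.99 and 6.96 CPM in the controls and 9.79, 8.57 and 10.4 CPM in the mutants. The groups did not overlap, by 8.57 against 8.56 CPM at the nearest pair, and the log2 fold change of 0.35 (-0.23 to 0.93) had an edgeR adjusted p of 0.791. Exons of Ints8 on the other strand share 609 bases (17.4%) of the Ccne2 exons, and Ints8 had a log2 fold change of 0.15. Ccna2 (cyclin A2), which drives S phase and entry into mitosis, was at 22.3, 17.0 and 14.2 CPM in the controls and 25.5, 19.9 and 16.9 CPM in the mutants. The highest library was a mutant and the lowest a control, with overlap between, and a log2 fold change of 0.22 (-0.30 to 0.74).

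Cdk1, the kinase of mitotic entry, stood at 18.1, 10.4 and 15.6 CPM in the controls and at 15.6, 10.9 and 12.6 CPM in the mutants. Both extremes were controls, and the log2 fold change was -0.17 (-0.75 to 0.40). Its partner Ccnb1 (cyclin B1) read 7.17, 5.88 and 4.53 CPM in the controls and 7.06, 7.34 and 5.21 CPM in the mutants, a log2 fold change of 0.16 (-0.58 to 0.90). The second B cyclin, Ccnb2, ranged from 9.88 to 19.7 CPM, both in mutant libraries, with a log2 fold change of 0.04.

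The transcription factor E2f1, which switches on S phase genes, depended on 1 library. It was at 16.1, 16.4 and 16.7 CPM in the controls, the tightest spread of the 3 factors, and at 35.4, 14.3 and 15.3 CPM in the mutants. Mutant replicate 1 was far above the other 5 libraries, and its 2 fellow mutants lay below all controls. The log2 fold change was 0.40 (-0.33 to 1.12, edgeR adjusted p = 0.807), and -0.11 without mutant replicate 1. Mybl2 (B-Myb) and Foxm1, which act on the G2 and mitosis genes, were also highest in mutant replicate 1. Mybl2 read 17.1, 9.33 and 16.8 CPM in the controls and 22.3, 11.6 and 10.2 CPM in the mutants, with a log2 fold change of 0.02 (-0.74 to 0.78). Foxm1 ranged from 8.41 to 20.3 CPM, both in mutants, with a log2 fold change of 0.12.

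Mcm2 to Mcm7 encode the 6 subunits of the ring-shaped helicase that is loaded on DNA before S phase. Of the 6, 5 had log2 fold changes above 0 and 1 below, with a median of 0.15, and none passed the edgeR test at an unadjusted p under 0.05. Mcm2 had the largest, 0.30 (-0.41 to 1.01), from 24.0, 14.4 and 16.5 CPM in the controls and 33.1, 13.4 and 21.4 CPM in the mutants. Mcm6 had the smallest, -0.01 (-0.55 to 0.52), from 60.6, 94.7 and 70.4 CPM in the controls and 99.0, 62.8 and 61.7 CPM in the mutants. In all 6 genes mutant replicate 1 was the highest library, and the other 2 mutants lay among or below the controls in most. Mcm4, for example, was at 6.42, 8.10 and 7.97 CPM in the controls and at 13.0, 6.53 and 6.16 CPM in the mutants. Mcm3 (15.3 to 26.7 CPM), Mcm5 (21.5 to 39.1 CPM) and Mcm7 (29.4 to 42.3 CPM) had the same highest library, with log2 fold changes of 0.13, 0.17 and 0.04.

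Pcna, the sliding clamp of the replication fork, read 33.7, 37.9 and 34.6 CPM in the controls and 49.0, 34.8 and 22.1 CPM in the mutants. The mutants held both the highest and the lowest library, the means were 35.4 ± 2.18 and 35.3 ± 13.5 CPM (SD, n = 3 pools each), and the fold change was 0.997 (95% interval 0.674 to 1.47). Rrm1 and Rrm2 encode the subunits of ribonucleotide reductase and Tyms the thymidylate synthase, which supply nucleotides. Rrm2 was at 20.2, 9.66 and 10.1 CPM in the controls and 22.2, 11.8 and 9.14 CPM in the mutants, a log2 fold change of 0.11 (-0.75 to 0.96). Both libraries that carry replicate number 1 stood well above the others of their group there. Rrm1 ranged from 15.6 to 27.5 CPM with a log2 fold change of -0.08. Tyms, at 10.7, 11.7 and 14.9 CPM in the controls and 10.9, 13.6 and 9.24 CPM in the mutants, was the 1 replication gene whose highest library was a control, with a log2 fold change of -0.14 (-0.69 to 0.42).

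Among the mitotic kinases and the chromosomal passenger complex, 1 gene had a log2 fold change above 0 and 4 below. Plk1, a kinase of spindle assembly and exit from mitosis, was the 1 above, at 13.6, 7.99 and 4.77 CPM in the controls and 17.9, 6.28 and 9.99 CPM in the mutants, with a log2 fold change of 0.37 (-0.62 to 1.37). Cdca8 (borealin) was the lowest of the 5, at 30.5, 16.4 and 16.9 CPM in the controls and 19.0, 15.3 and 12.4 CPM in the mutants, with a log2 fold change of -0.45 (-1.07 to 0.18, edgeR adjusted p = 0.772). In both the groups overlapped, with a replicate numbered 1 highest. The kinases Aurka (5.24 to 12.9 CPM) and Aurkb (7.44 to 17.4 CPM) and the passenger protein gene Birc5 (survivin, 8.29 to 22.6 CPM) were highest in control replicate 1, with log2 fold changes of -0.11, -0.22 and -0.39.

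The spindle checkpoint delays anaphase until all chromosomes are attached, and the APC/C, with its activator Cdc20 and its ubiquitin-conjugating enzyme Ube2c, then triggers anaphase. Cdc20 read 22.4, 19.5 and 19.5 CPM in the controls and 27.1, 14.7 and 20.7 CPM in the mutants, a log2 fold change of 0.02 (-0.50 to 0.54). Bub1b (BubR1), a checkpoint kinase gene just outside the threshold, was at 19.8, 9.55 and 15.0 CPM in the controls and 10.7, 10.0 and 8.07 CPM in the mutants, with a log2 fold change of -0.62 (-1.27 to 0.03, edgeR adjusted p = 0.692). Control replicates 1 and 3 were above all mutants and control replicate 2 was not. Ttk, the kinase at the top of the checkpoint, was highest in control replicate 1 (8.45 CPM) and ranged from 3.29 to 4.55 CPM in the other 5 libraries, with a log2 fold change of -0.59. Bub1 (1.88 to 3.75 CPM) had a log2 fold change of -0.11.

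Ube2c passed the unadjusted threshold through 1 library. It was measured at 320.0, 15.9 and 12.5 CPM in control replicates 1, 2 and 3 and at 31.2, 23.0 and 19.9 CPM in the mutants, from 2990, 143 and 160 and from 274, 282 and 187 counts. Control replicate 1 stood far above every other library, and the other 2 controls lay below all mutants. With all libraries the fold change was 0.213 (95% interval 0.0454 to 0.997, log2 -2.23, edgeR adjusted p = 0.691). Without control replicate 1 the direction reversed, to a log2 fold change of 0.82 (edgeR adjusted p = 0.175). That was again past the unadjusted threshold of 0.05, which 14.1% of all genes passed in that fit. In limma-voom, with weights for library quality, the log2 fold change of Ube2c was -0.22 (adjusted p = 0.949), and with the replicate block in edgeR -0.61 (adjusted p = 0.932). Without the filter on low counts edgeR gave -2.23 with an adjusted p of 0.00203, in a fit where 245 of 26418 genes passed after adjustment. Beside this stands an overlap of genes. Ube2c lies at chr2:164769898-164778822 on the plus strand of GRCm38, and 5 of the 6 exons of Tnnc2-201, a transcript of the fast skeletal muscle troponin C gene on the minus strand, overlap the 1633-base last exon of Ube2c-201, which holds 592 of the 700 exonic bases of Tnnc2-201. Tnnc2 was counted at 289.8 CPM in control replicate 1 and at 6.44 and 2.58 CPM in the other controls, and at 14.0, 12.6 and 8.92 CPM in the mutants. The order of the 6 libraries was the same for both genes, with control replicate 1 highest, the 3 mutants next and control replicates 2 and 3 lowest. Whether reads were counted by strand was not given in the sources used here, so reads of Ube2c and of Tnnc2 over the shared bases cannot be told apart.

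**Figure D2:**
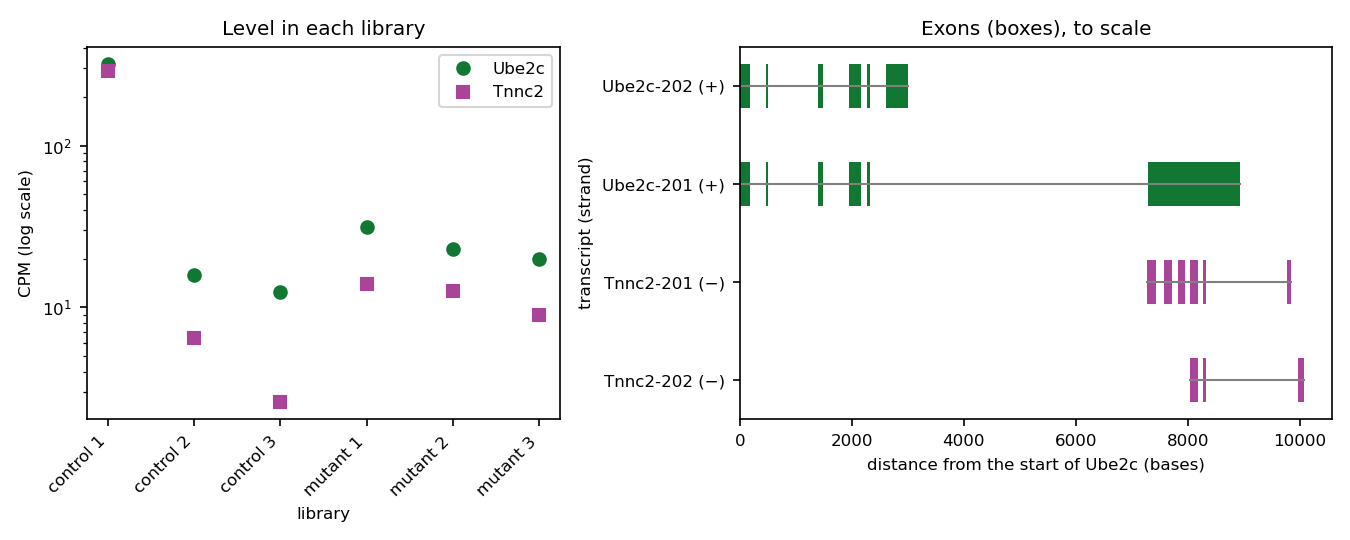
Left, CPM of Ube2c and Tnnc2 in each of the 6 libraries on a log scale. Right, annotated exons of both genes to scale, as bases from the start of Ube2c: control replicate 1 is highest for both genes, and the last exon of Ube2c-201 overlaps 5 of the 6 exons of Tnnc2-201.

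The kinetochore genes link chromosomes to the spindle. Cenpe, a kinetochore motor, was at 12.6, 6.11 and 4.92 CPM in the controls and 5.69, 6.37 and 4.89 CPM in the mutants, with a log2 fold change of -0.47 (-1.35 to 0.40). The large kinetochore protein gene Cenpf read 16.1, 8.44 and 7.27 CPM in the controls and 11.5, 14.0 and 8.71 CPM in the mutants, with a log2 fold change of 0.11 (-0.64 to 0.86). In both the groups overlapped, and control replicate 1 was highest. Cenpa, the centromeric histone (14.7 to 24.9 CPM), and Ndc80 and Nuf2, subunits of the complex that grips microtubules (2.23 to 3.91 and 4.77 to 11.7 CPM), had log2 fold changes of 0.08, -0.38 and -0.35.

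The last group moves and bundles the microtubules of the spindle and its midzone. Kif11 (Eg5, chr19:37376403-37421859 on the plus strand, GRCm38), the motor that pushes the spindle poles apart, was at 20.9, 11.99 and 15.0 CPM in the controls and at 10.7, 12.2 and 8.07 CPM in the mutants. Controls 1 and 3 lay above all mutants and control replicate 2 fell between them. The means were 16.0 ± 4.51 and 10.3 ± 2.11 CPM (SD, n = 3 pools each), a fold change of 0.649 (0.427 to 0.987, log2 -0.62, SE 0.27, edgeR adjusted p = 0.691). Kif11 stayed past the unadjusted threshold of 0.05 without control replicate 2 (log2 -0.79) or mutant replicate 2 (-0.75). It did not without control replicate 1 (-0.36), control replicate 3 (-0.65), mutant replicate 1 (-0.61) or mutant replicate 3 (-0.47). Nor did it with the replicate block in edgeR (-0.61), in DESeq2 (-0.61) or in limma-voom (-0.56). With RLE size factors (-0.62), library size alone (-0.73) or no filter on low counts (-0.61), Kif11 did stay past it. No exon of another gene overlaps it. Prc1, which bundles the midzone, read 28.4, 15.8 and 10.6 CPM in the controls and 21.5, 21.4 and 12.01 CPM in the mutants, a log2 fold change of 0.01 (-0.78 to 0.80). The motors Kif23 (7.86 to 19.8 CPM) and Kif20a (14.2 to 24.7 CPM) of cytokinesis, the spindle assembly factor gene Tpx2 (13.6 to 24.8 CPM) and the microtubule binder Nusap1 (8.18 to 18.2 CPM) had log2 fold changes from -0.34 to -0.08. Exons of Cdc23 on the other strand share 29.3% of the Kif20a exons.

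**Figure D3:**
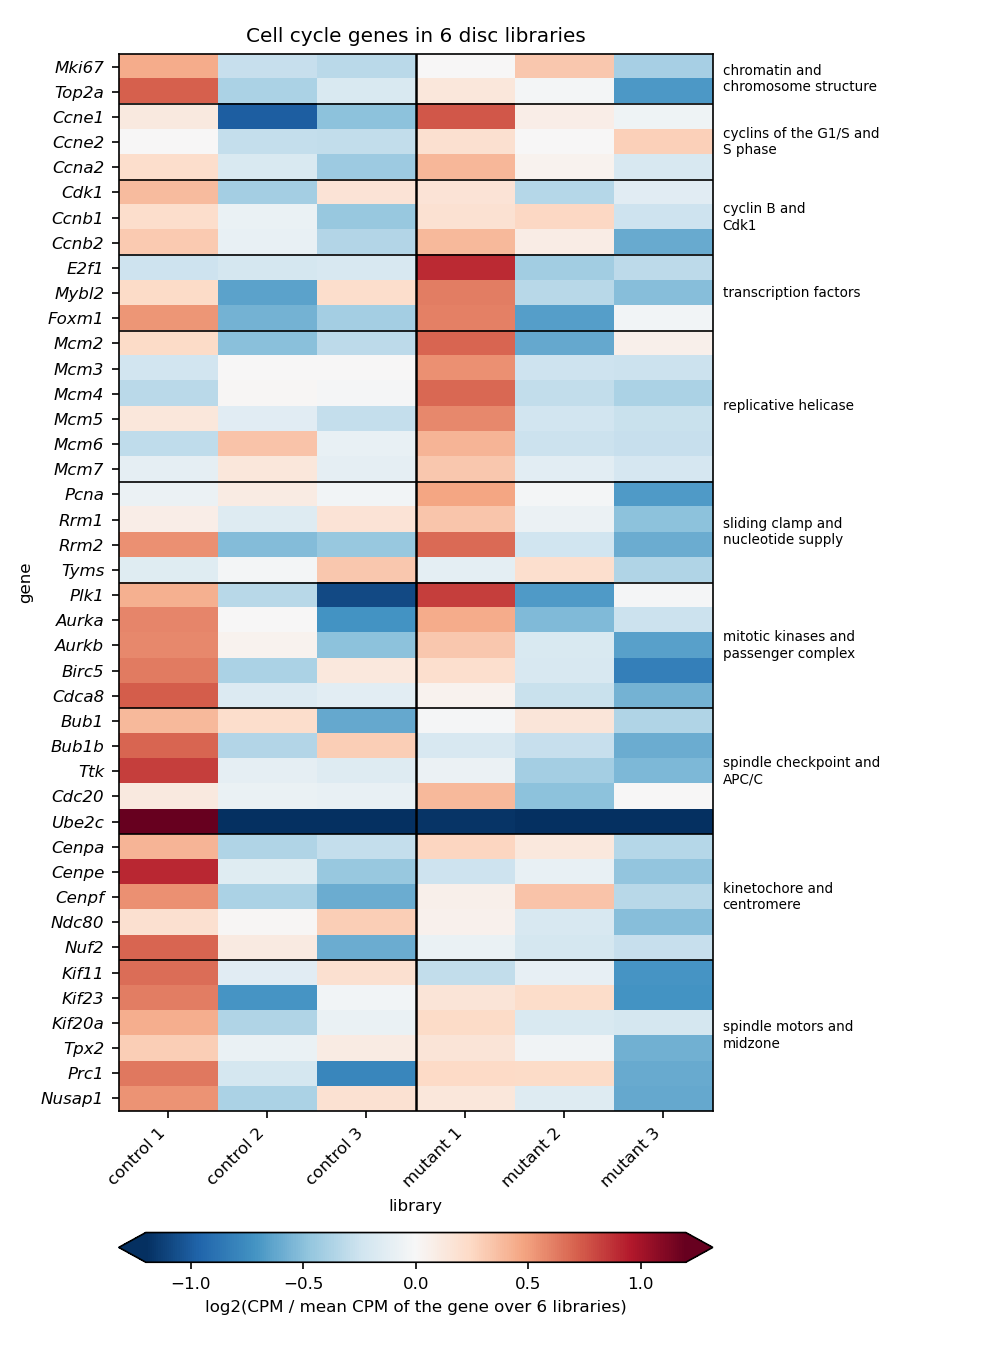
Level of each of the 42 genes (rows, by role) in each library (columns), as log2 of its CPM over its mean CPM in the 6 libraries, with red above and blue below that mean. Control replicate 1 is red through most mitosis genes and mutant replicate 1 through the helicase genes, while mutant replicate 3 is the bluest column for many. Ube2c exceeds the colour scale.

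The 42 genes varied more between pools of 1 genotype than between genotypes. The mean log2 CPM over the 42 genes was 4.21, 3.59 and 3.59 in the controls and 4.09, 3.67 and 3.44 in the mutants, a difference of -0.07 beside a pooled SD between libraries of 0.35. On the linear scale the mean was 27.5, 15.3 and 15.1 CPM in the controls and 21.4, 15.6 and 13.2 CPM in the mutants, and without Ube2c it was 20.4, 15.3 and 15.2 CPM and 21.2, 15.4 and 13.0 CPM. Both libraries numbered 1 were high and the 4 others were close. Control replicate 1 was the highest library for 21 of the 42 genes and mutant replicate 1 for 17, where they were highest for 15.6% and 21.2% of all genes tested. Mutant replicate 3 was the lowest for 21 of the 42, where it was lowest for 14.5% of all genes.

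The 2 high libraries differed in which genes were high. For the 10 replication genes (Mcm2 to Mcm7, Pcna, Rrm1, Rrm2 and Tyms) the mean log2 CPM was 4.45, 4.39 and 4.39 in the controls and 4.92, 4.28 and 4.13 in the mutants, and mutant replicate 1 was highest for 9 of the 10. For the 21 mitosis genes, from Plk1 to Nusap1 in the order above, it was 4.20, 3.31 and 3.24 in the controls and 3.65, 3.37 and 3.08 in the mutants, and control replicate 1 was highest for 18 of the 21. Measured against the mean log2 CPM of the other 2 controls, control replicate 1 was above it for 21 of 21 mitosis genes (median 0.80) and for 4 of 10 replication genes (median -0.11). Mutant replicate 1 was above the other 2 mutants for 9 of 10 replication genes (median 0.81) and for 21 of 21 mitosis genes (median 0.42). These libraries were singled out after their values were seen, and the pattern has no test.

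**Figure D4:**
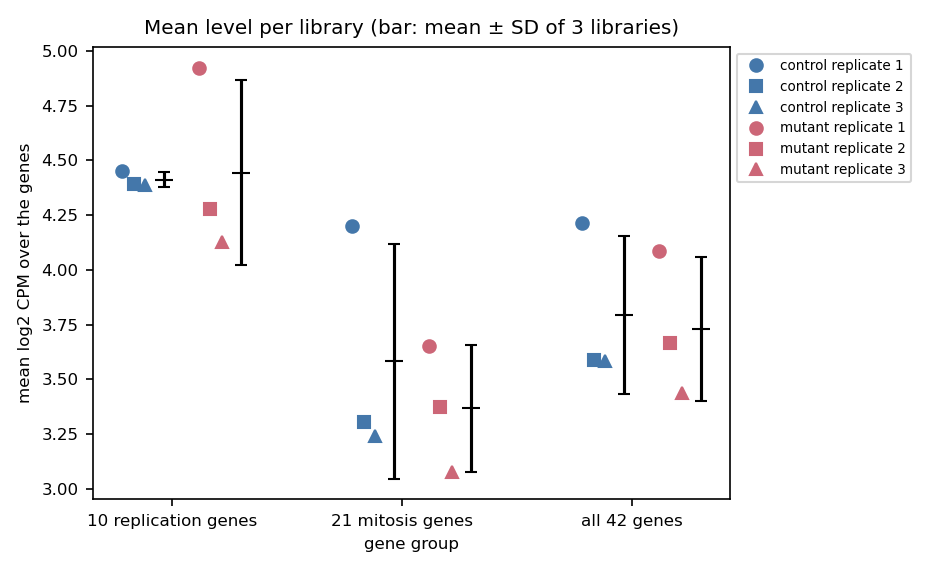
Mean log2 CPM of each library over the 10 replication genes, the 21 mitosis genes and all 42 genes (points, blue for control and red for mutant, shape for replicate), with the mean ± SD of 3 libraries (black). Mutant replicate 1 lies apart at 4.92 for replication and control replicate 1 at 4.20 for mitosis, while the genotype means differ by less than the mutant SD in each set.

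Which genes sat above or below 0 turned on these libraries. Without control replicate 1, 30 of the 42 genes had a log2 fold change above 0, with a median of 0.13, and the median of the 21 mitosis genes moved from -0.23 (5 above 0) to 0.11 (13 above 0). Without mutant replicate 1, 6 of the 42 were above 0, with a median of -0.21, and the replication genes went from 6 of 10 above 0 (median 0.07) to 0 of 10 (median -0.17). Without mutant replicate 3, 26 of the 42 were above 0, with a median of 0.12. The median over all genes tested stayed between -0.02 and 0.0043 in these fits, and none of the 42 passed an adjusted p under 0.05 in edgeR.

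Markers of other cells also varied between the libraries, and their highest library differed by cell type. Their counts past an unadjusted edgeR p under 0.05 stand beside 2.89% of all genes higher and 4.32% lower. The skeletal muscle, endothelium and hypertrophic chondrocyte sums were highest in control replicate 1, the library that was highest for the mitosis genes. For 14 markers of neutrophil precursors, which divide in the marrow, the summed level was 17.6 to 65.0 CPM in the controls and 39.3 to 173 CPM in the mutants, highest in mutant replicate 1, the library that was highest for the replication genes. All 11 of these that were tested had log2 fold changes above 0 and 2 passed an unadjusted edgeR p under 0.05, the granule enzyme genes Mpo and Prtn3. Of 15 markers of red cell precursors, 14 were matched and 13 tested, all 13 were above 0 and 4 passed, with sums of 25.1 to 183 CPM in the controls and 130.0 to 291 CPM in the mutants. Their highest library was mutant replicate 2, which was highest for 1 of the 42 genes. For 10 macrophage markers the sums were 76.5 to 104 and 83.7 to 144 CPM, also highest in mutant replicate 1, and 1 of 9 tested passed, Cd68, which was higher without overlap (log2 fold change 0.74). For 10 markers of B cell precursors, among which Rag1 was at 0 in every library and 0 of 5 tested passed, the sums were 9.74 to 15.2 and 7.97 to 15.0 CPM. Of 6 prehypertrophic and hypertrophic chondrocyte markers, all 6 were below 0 and 3 passed, with sums of 1137 to 2194 CPM in the controls and 840.0 to 1085 CPM in the mutants. The sum of 7 endothelial markers was 254 CPM in control replicate 1, 130.5 and 147 CPM in the other controls and 206 to 228 CPM in the mutants, and 0 of the 7 passed. For 8 osteoblast markers the sums were 4650 to 14082 CPM in the controls and 12681 to 21107 CPM in the mutants, highest in mutant replicate 3. Most of that sum was Col1a1, which fibrous tissue also makes. Of the 8, 5 were above 0 and 3 below, and 4 passed, with Bglap, Bglap2 and Col1a1 higher and Phex lower. The part of these cells in the levels of the 42 genes was not tested, and in bulk tissue fewer dividing cells and less RNA per dividing cell cannot be told apart.

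Per length the levels spread widely. Per kilobase of exon, the control means were highest for Ube2c (44.7 CPM per kb, through control replicate 1), Mcm6 (16.1), Pcna (14.8), Cdc20 (11.0) and Ccnb2 (9.68), and lowest for Ndc80 (0.553), Bub1 (0.685) and Cenpf (0.686). The 95% interval of a log2 fold change reached from 0.42 to 2.23 to either side, with a median of 0.70.

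The cell cycle genes outside the 42 included a few that passed the unadjusted threshold. Of 133 listed, 131 were tested, 51 had log2 fold changes above 0 and 80 below, with a median of -0.11 beside -0.01 for all genes, and 6 passed an unadjusted edgeR p under 0.05, 2 higher and 4 lower in the mutants, beside 7.21% of all genes. After adjustment none passed in edgeR with the filter on low counts or in limma-voom, whereas Cdkn1a alone passed in edgeR without that filter and in DESeq2. Over all genes, 245 of 26418 passed after adjustment in that edgeR fit and 52 of 26372 in DESeq2. Mutant and control libraries did not overlap for 21 of the 131, 4 higher and 17 lower, beside 5.45% of all genes higher and 5.96% lower.

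Cdkn1a (p21), an inhibitor of the cyclin-dependent kinases, had the smallest p of these 131 genes. It read 92.6, 86.3 and 64.2 CPM in the controls and 163, 161 and 171 CPM in the mutants. Every mutant lay above every control, the fold change was 2.03 (1.52 to 2.72, log2 1.02, SE 0.19) and the edgeR adjusted p was 0.411. It stayed past the unadjusted threshold of 0.05 when any 1 library was left out, with a log2 fold change of 0.89 to 1.15. Ccnd2 (cyclin D2), which acts in G1, was at 136, 84.2 and 98.8 CPM in the controls and 165, 198 and 171 CPM in the mutants, a fold change of 1.67 (1.21 to 2.31, edgeR adjusted p = 0.676), again without overlap. It too stayed past that threshold with any 1 library left out, with a log2 fold change of 0.59 to 0.98. Its relative Ccnd1 (cyclin D1) was at 50.8, 38.2 and 39.7 CPM and at 67.3, 42.0 and 46.2 CPM, a log2 fold change of 0.27 (-0.20 to 0.74), with overlap. Cdk6, the kinase that D cyclins bind, went the other way, at 15.4, 14.0 and 12.3 CPM in the controls and 7.28, 12.2 and 7.76 CPM in the mutants, with a log2 fold change of -0.60 (edgeR adjusted p = 0.691).

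Blm and Melk were also lower at that threshold, and in both the groups did not overlap. Blm, a helicase of fork repair, read 10.6, 15.7 and 18.0 CPM and 9.10, 9.79 and 10.1 CPM (log2 fold change -0.61, edgeR adjusted p = 0.676). Melk, a kinase of dividing cells, read 7.28, 6.11 and 7.43 CPM and 3.76, 4.49 and 1.27 CPM (log2 fold change -1.12, edgeR adjusted p = 0.676). When 1 library was left out, Cdk6 passed the unadjusted threshold only without mutant replicate 2, Blm only without control replicate 1, and Melk only without mutant replicate 1 or 2. Their log2 fold changes stayed below 0 throughout, at the nearest to 0 -0.43 for Cdk6, -0.43 for Blm and -0.74 for Melk. With the replicate block in edgeR, and in DESeq2, Melk passed the unadjusted threshold and Cdk6 and Blm did not. In limma-voom Melk, Cdk6 and Blm all passed it, where 9.14% of all genes did. By group, 13 of 16 genes of origin licensing and firing were below 0 with a median of -0.20 and 0 passed in edgeR, and the 5 without overlap, named after their values were seen, were Orc3, Gmnn, Cdc45, Gins3 and Cdc7, all lower, where 5.96% of all genes were lower without overlap. Of 30 genes of the replication fork 19 were below 0 (median -0.08), 2 passed and 4 were lower without overlap, and of 56 other G2 and mitosis genes 35 were below 0 (median -0.11), 1 passed and 7 did not overlap, 1 higher and 6 lower. Of 6 G1 cyclins and kinases 5 were above 0, of 7 inhibitors 3, and of 16 pocket protein and E2F genes 8.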

How the data were processed

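Poly(A) RNA of IVDs was sequenced in paired reads from 6 pools, 3 per genotype, at postnatal day 20. The authors deposited whole-number counts per gene symbol for each library, in files whose closing lines are those of htseq-count. The submitters' processing notes name STAR 2.5.3a, HTSeq, DESeq2 and mm10/GRCm38, whereas the methods name HISAT2 with StringTie and Ballgown on FPKM, which the counts do not hold. Whether reads were counted by strand was not given in the sources used here. A further deposited table holds the authors' own comparison and was not used. The closing lines, which name no gene, took 55.8% to 59.6% of each library and were left out.

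Counts were tested with edgeR 4.0.16 in R 4.3.3 (TMM, filterByExpr with a minimum count of 10, quasi-likelihood test, Benjamini-Hochberg over 16152 genes). The methods' test needs FPKM, so this test replaced it. CPM are counts scaled to a common, TMM-adjusted library total, and a mean log2 CPM uses a prior count of 2. Each SE came from the log2 fold change and its F statistic (the size of the change over the root of F). Intervals from these depths cover counting error and the spread between pools alone, since reads carry no molecular identifiers. Alternatives were other size factors, no filter, DESeq2 1.42.0, limma 3.58.1, a replicate block and each library left out. Scripts were tested on simulated data. Genes were named when past an unadjusted p of 0.05, without overlap between groups, at either end of their group by log2 fold change, or usual readouts of cycling (Mki67, Top2a, Cdk1, Ccnb1, Pcna, Mcm2), and outside the 42 when past that p, or as Cdkn1a and Ccnd1, except 1 gene that is not reported here, and 5 further genes of origin licensing and firing were named after their values were seen. The other members are given by range. The 42 genes, the lists and the markers were chosen with earlier results of these data known. Exon positions are those of GENCODE M21 (GRCm38) and promoters those of RefSeq (GRCm38.p6). The listed symbols Sgol2a and Ahsp were not matched.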

Additional observations from a re-analysis of the deposited data

How the results depend on the processing

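At an unadjusted p under 0.05, the count of 2 of the 42 genes stayed 2 with RLE size factors. It became 3 with library size alone, 3 without the filter on low counts, 0 with DESeq2 and 0 with limma-voom. Of all genes, 7.2%, 7.57%, 8.62%, 6.07% and 9.14% passed in those fits, in that order. It was 1 among the 30 genes whose exons share no base with another gene. With each library left out it ran from 0 to 3, where 3.77% to 14.1% of all genes passed. The count after adjustment, 0, became 1 (Ube2c, edgeR adjusted p = 0.00203) without the filter on low counts, and among the other cell cycle genes Cdkn1a then passed too. That fit called 245 of 26418 genes after adjustment, where the main fit called 1 of 16152. Among the other cell cycle genes the count of 6 became 11 with library size as the only scaling, where 7.57% of all genes passed. It ran from 2 to 7 with each library left out, where 3.77% to 14.1% of all genes passed. The log2 fold change of Ube2c reversed to 0.82 without control replicate 1, against -2.76 to -2.10 without any other single library, and shrank to -0.61 with the replicate block and -0.22 with limma-voom. No other called value of the 42 changed sign. Of the 42 genes, 30 had the other sign under at least 1 alternative. Scaling by library size alone moved the median of all genes to -0.13 and that of the 42 to -0.14, with 10 of 42 above 0 in place of 20. The mean log2 difference over the 42 genes stayed within 1 SD of -0.07 under each alternative that gives such a mean (DESeq2 and limma-voom were not run for it), from -0.21 without mutant replicate 1 to 0.16 without control replicate 1. The causes of these shifts were not tested, except that Ube2c rests on 1 library.

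Whether the replicate numbers pair the pools is not settled by these data. Deviations of same-numbered libraries correlated at 0.16, -0.13 and 0.10, and those of differently numbered ones at -0.26 to 0.18. With 3 pools per genotype such values cannot show or exclude a pairing. With the replicate block, 0 of the 42 genes had an unadjusted p under 0.05 in edgeR and 4 of the other cell cycle genes did, beside 6.2% of all genes. Among those 4 were Ccnd2, Cdkn1a and Melk but not Cdk6 or Blm.

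With 3 pools per genotype and low levels, the 95% intervals of 14 of the 42 genes still hold a 2-fold change. The pools measure neither single mice nor single cells, and the labels give no batch.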

Other observations

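Rows of processed pseudogenes of 2 of the 42 genes had counts of their own. Pcna-ps2 had 0, 2 and 2 counts in control replicates 1, 2 and 3 and 10, 39 and 31 counts in the mutants, too few for the filter. Without the filter edgeR gave it an adjusted p of 0.0233, in a fit where 245 of 26418 genes were under 0.05 after adjustment. Pcna itself was at 35.4 and 35.3 CPM on average in the controls and the mutants. Ccnb2-ps had 24, 14 and 24 counts in the controls and 35, 14 and 23 in the mutants. These rows were looked at after values of Pcna were seen, and reads that a pseudogene shares with its parent gene can be placed on either.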
